A study of Mus musculus with 9 samples.

Results

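Interferon response genes were examined in cultured mouse calvarial osteoblasts that had been exposed to parathyroid hormone peptides. The members are 33 genes chosen from textbook knowledge of the interferon response, at a time when earlier results of these data were known. Counts of members beside all clusters are therefore descriptive. Of the 33 genes, 30 could be read from a transcript cluster annotated with that gene symbol alone, among 23521 such clusters on the array. A transcript cluster is a group of array probes summarised as a single value. Where a gene had several clusters, the cluster with the highest mean of the 9 array values was used. Of the remaining 3 genes, Ifi44 had no cluster, while Gbp2 and Dtx3l lay only on clusters that also carry another symbol and were not read.

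Osteoblasts were grown from the calvaria (skull bones) of C57BL/6J mice aged 7 to 10 days, taken to passage 2, differentiated from day 3 with ascorbic acid and β-glycerophosphate, and deprived of serum on day 10 for 24 h. They then received vehicle, 100 nM hPTH(1-34) or 1 µM bPTH(7-34) for 4 h in serum-free medium, with 3 arrays in each group and an array number of 1, 2 or 3 in the labels. hPTH(1-34) is the active human fragment, an agonist of the receptor Pth1r, which signals through cAMP. bPTH(7-34) is the bovine amide with D-Trp12 and Tyr34, which lacks the start of the peptide and is known as an antagonist of the same receptor. Because the doses of the peptides differ, no difference between them is a comparison at a matched dose. The series text states that cells were prepared separately for each replicate and does not state whether arrays of 1 number came from 1 preparation, and p-values measure the spread between these samples. The labels name no engineered allele in any group. These are primary cells, in which other cells of the calvaria can persist, and in such bulk RNA fewer cells of a type and less RNA per cell cannot be told apart.

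Type I interferons bind a receptor made of Ifnar1 and Ifnar2, whose kinases Jak1 and Tyk2 phosphorylate Stat2. Stat2 acts with Irf9 in a complex that binds the interferon-stimulated response element in promoters, while interferon-gamma has its own receptor and induces Irf1. The induced genes encode inhibitors of viral translation and replication, sensors of viral RNA, large GTPases, and feedback regulators, and many of them are also present at a low basal level in cells without infection.

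Values are log2 expression. Of 13 listed osteoblast markers 10 were measured. Col1a1, the main bone collagen gene, was at 12.1 to 12.4 in every array, and Sparc at 10.77 to 11.01. The late markers Bglap and Dmp1 did not exceed the background limit of 1.69, the level that 95% of 1108 olfactory receptor clusters stay below in vehicle. Of the 10 markers 7 exceeded it in all 9 arrays, as did all 7 measured adipocyte markers. All 30 interferon response genes exceeded that limit in all 9 arrays. Array medians over all clusters lay between 1.67 and 1.76, a closeness that RMA sets by its construction. Arrays have no read depth, and their number limits the precision.

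Promoters were taken from RefSeq (GRCm38.p6), from 250 bases before to 50 bases after a transcription start, and were found for 22 of the 30 genes. They were searched on both strands for 2 copies of GAAA with any 2 bases between them, the core of the interferon-stimulated response element, with overlapping matches counted. The motif was present in 12 of the 22 genes (54.5%) and in 3.99% of the 27025 genes with a promoter of this length. The 3 promoters printed here, with the matches in capitals, belong to the ubiquitin-like effector Isg15, the signal transducer Stat2 and the RNA-binding effector Ifit3, and show the element at different positions and in both orientations.
Isg15: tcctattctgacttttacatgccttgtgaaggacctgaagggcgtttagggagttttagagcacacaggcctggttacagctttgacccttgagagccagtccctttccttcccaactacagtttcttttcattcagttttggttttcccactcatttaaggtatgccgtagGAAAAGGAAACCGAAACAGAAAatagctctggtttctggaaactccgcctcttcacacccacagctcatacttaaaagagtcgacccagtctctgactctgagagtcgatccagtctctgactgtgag
Stat2: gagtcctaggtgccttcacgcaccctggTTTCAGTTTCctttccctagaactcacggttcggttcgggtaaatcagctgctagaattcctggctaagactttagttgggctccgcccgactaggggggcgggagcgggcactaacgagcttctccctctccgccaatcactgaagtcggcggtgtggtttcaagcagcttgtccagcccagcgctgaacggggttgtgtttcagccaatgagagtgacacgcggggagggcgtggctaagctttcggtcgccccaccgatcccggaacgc
Ifit3: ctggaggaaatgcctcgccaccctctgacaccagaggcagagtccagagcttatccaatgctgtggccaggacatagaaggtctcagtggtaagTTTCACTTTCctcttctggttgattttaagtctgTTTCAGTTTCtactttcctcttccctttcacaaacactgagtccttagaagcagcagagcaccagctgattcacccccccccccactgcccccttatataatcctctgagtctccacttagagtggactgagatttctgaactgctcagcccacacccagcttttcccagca
The Isg15 window lies on the minus strand of chr4:156200769-156201068 and holds 3 overlapping matches, which begin between 78 and 66 bases before the start. The Stat2 window lies on the plus strand of chr10:128270248-128270547 with 1 match 222 bases before the start. The Ifit3 window lies on the plus strand of chr19:34583279-34583578 with matches 156 and 122 bases before the start. No match was found in the windows of Ifit2. A match describes letters in the window and is not evidence of binding.

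Several members are neighbours in the genome. No protein-coding gene lies between Rsad2 and Cmpk2, Ifit2 and Ifit3, Oasl2 and Oasl1, Oas2 and Oas3, or Gbp7 and Gbp3 in the RefSeq gene order. Parp14, Dtx3l and Parp9 also follow each other directly, with Dtx3l between Parp14 and Parp9. The Ifit, Oas, Gbp and Mx families hold closely related copies, and whether probes of one copy also bound the transcripts of another was not tested.

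The arrays numbered 1 stood apart for these genes in all 3 treatment groups. The mean of the 30 genes was 6.90 in vehicle, 6.81 in hPTH(1-34) and 6.68 in bPTH(7-34) among the arrays numbered 1. It was 6.41, 6.17 and 6.52 in the same order for number 2, and 6.42, 6.03 and 6.18 for number 3. The lowest array numbered 1 thus lay above the highest of the 6 other arrays. A member's highest array carried number 1 in 26 of 30 genes, against 33.7% of all clusters, and its lowest array carried number 3 in 24 of 30, against 33.2%. The members varied more over the arrays than most clusters did, with a median range of 1.15 (0.37 to 1.74) against 0.57 for all clusters tested. The clusters were not matched to the members in level: 5144 of the 23521 had a mean of at least 5, against 24 of the 30 members. Unless stated otherwise, shares of clusters refer to all 23521.

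**Figure D1:**
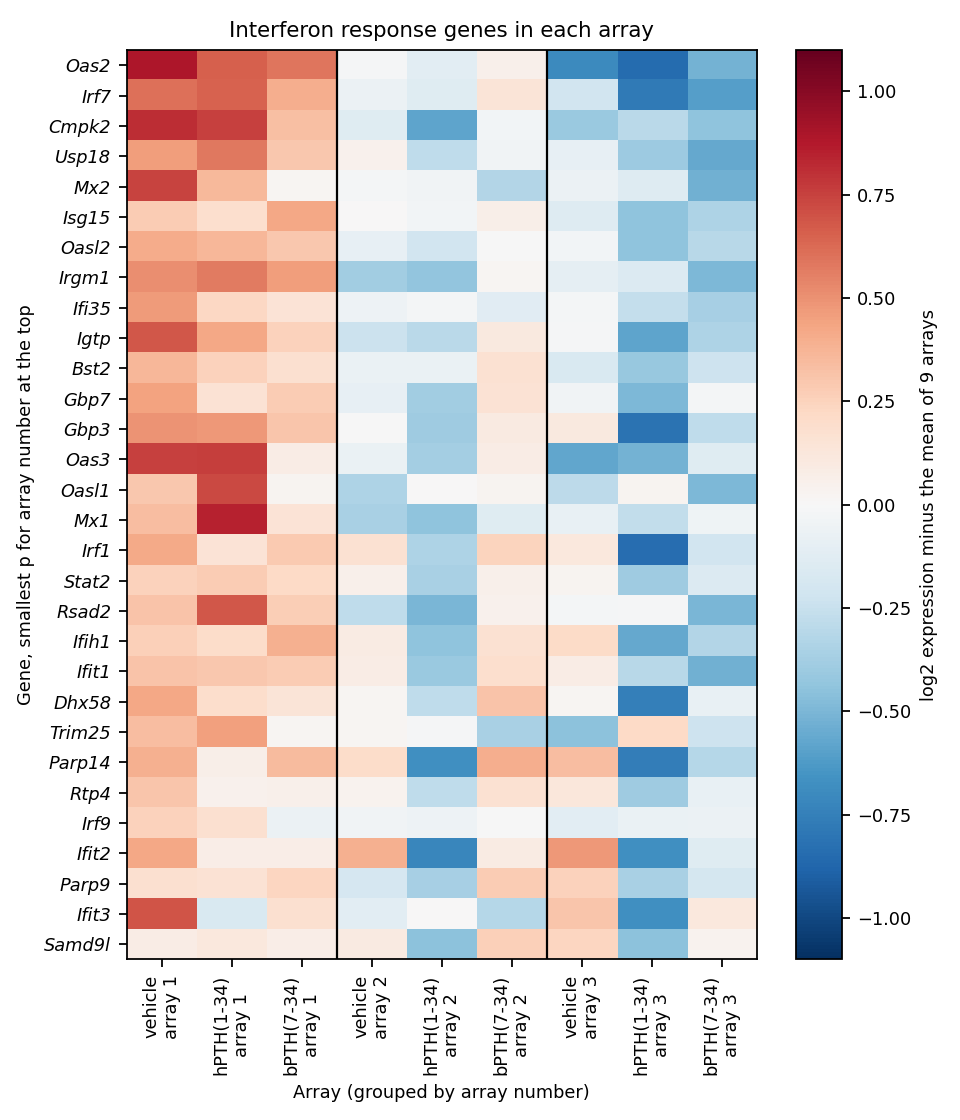
Each square is the log2 expression of a gene (vertical axis) in an array (horizontal axis, grouped by array number) minus its mean over the 9 arrays, red for higher and blue for lower. The 3 columns of array number 1 on the left are mostly red, and the hPTH(1-34) columns of numbers 2 and 3 are mostly blue; the genes are ordered by p for array number, with Oas2 at the top and Samd9l at the bottom.

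The difference between array numbers was tested with limma's moderated F-test in a fit that also held the treatment, with Benjamini-Hochberg adjustment over the 23521 clusters and a threshold of 0.05. One member, Oas2, passed, where 0.213% of all clusters did. At an unadjusted p under 0.05 the count was 23 of 30 members, against 10.1% of all clusters, and was 15 members without hPTH(1-34) array 1. In the fit without that array the clusters called at an adjusted p under 0.05 were 11, against 50 with all arrays. All 30 members had their highest mean in number 1, against 36.5% of clusters. In 16 members every array numbered 1 exceeded all 6 others, against 3.24% of clusters, and in 4 members every array numbered 3 was lower than all others, against 1.36%. The median difference of the members was 0.38 (0.12 to 0.88) between numbers 1 and 2, 0.56 (0.15 to 1.40) between numbers 1 and 3, and 0.15 (-0.18 to 0.67) between numbers 2 and 3. The corresponding medians of all clusters were 0.01, 0.00 and -0.00.

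Oas2 encodes an enzyme that is activated by double-stranded RNA and then makes 2′-5′ oligoadenylate, which activates RNase L. Its vehicle values were 6.04, 5.14 and 4.45 for array numbers 1 to 3, its hPTH(1-34) values were 5.81, 5.03 and 4.30, and its bPTH(7-34) values were 5.74, 5.21 and 4.63. The numbers did not overlap, and the order of the numbers was the same in all 3 groups. Mean levels were 5.86 ± 0.16 (SD, n = 3), 5.13 ± 0.09 and 4.46 ± 0.17, a difference of 1.40 ± 0.11 (SE), or 2.65-fold, between numbers 1 and 3 (limma adjusted p = 0.0105). The call was lost without vehicle array 1 (adjusted p = 0.116), vehicle array 2 (0.0526), vehicle array 3 (0.0781), hPTH(1-34) array 1 (0.0977), hPTH(1-34) array 3 (0.103) or bPTH(7-34) array 3 (0.0503), and kept without each of the other 3. Its neighbour Oas3 had a difference of 0.94 ± 0.23 between numbers 1 and 3 (adjusted p = 0.316). Oasl1, a related protein without synthetase activity, and its neighbour Oasl2 had differences of 0.60 ± 0.15 and 0.62 ± 0.11 (adjusted p = 0.322 and 0.155).

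Among the regulators, Irf7, the transcription factor that amplifies type I interferon production, differed most by array number. Irf7 was 9.66, 9.70 and 9.45 in vehicle, hPTH(1-34) and bPTH(7-34) array 1. It was 8.99, 8.92 and 9.20 in the arrays numbered 2, and 8.84, 8.28 and 8.45 in those numbered 3. Its arrays numbered 1 were all above the others, by 1.08 ± 0.15 (2.11-fold) over number 3 (adjusted p = 0.0966). Stat2, in the same order, was 8.11, 8.14 and 8.08 in number 1, 7.92, 7.50 and 7.92 in number 2, and 7.89, 7.47 and 7.71 in number 3. Stat2 also had all arrays numbered 1 on top, with a difference of 0.42 ± 0.12 over number 3 (adjusted p = 0.397). Irf9, its DNA-binding partner, was 6.57, 6.49 and 6.25 in number 1, 6.28, 6.26 and 6.31 in number 2, and 6.20, 6.24 and 6.25 in number 3. Irf9 was high in vehicle and hPTH(1-34) array 1 only, and had the smallest range of all members over the 9 arrays (0.37), with a difference of 0.21 ± 0.11 between numbers 1 and 3 (adjusted p = 0.678). Irf1, the factor induced by interferon-gamma, was 6.22, 5.95 and 6.09 in number 1, 5.97, 5.46 and 6.05 in number 2, and 5.92, 4.96 and 5.59 in number 3. For Irf1 the lowest arrays were hPTH(1-34) arrays 3 and 2, and the number difference of 0.60 ± 0.14 had adjusted p = 0.324.

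Among the effectors, Isg15, which is conjugated to newly made proteins, was 9.63, 9.53 and 9.77 in vehicle, hPTH(1-34) and bPTH(7-34) array 1. It was 9.35, 9.32 and 9.41 in number 2 and 9.21, 8.91 and 9.01 in number 3. The 3 number groups of Isg15 did not overlap, and numbers 1 and 3 differed by 0.60 ± 0.10, or 1.52-fold (adjusted p = 0.147). Usp18, the protease that removes Isg15 and damps the interferon receptor, was 8.24, 8.36 and 8.08 in number 1, 7.83, 7.50 and 7.74 in number 2, and 7.69, 7.38 and 7.22 in number 3. Again every array numbered 1 was highest, with 0.80 ± 0.13 over number 3 (1.74-fold, adjusted p = 0.141). Cmpk2, a mitochondrial nucleotide kinase, was 7.03, 6.97 and 6.55 in number 1, 6.09, 5.64 and 6.19 in number 2, and 5.81, 5.92 and 5.78 in number 3. Cmpk2 differed by 1.01 ± 0.18 between numbers 1 and 3 (2.02-fold, adjusted p = 0.141). Its neighbour Rsad2, an enzyme that makes a chain-terminating nucleotide, had 0.60 ± 0.20 (adjusted p = 0.403). Mx2, a dynamin-like GTPase, was 3.84, 3.45 and 3.12 in number 1, 3.07, 3.06 and 2.77 in number 2, and 3.03, 2.95 and 2.57 in number 3. Its lowest array numbered 1 only just exceeded the highest of the others, and its difference between numbers 1 and 3 was 0.62 ± 0.11 (adjusted p = 0.143). Bst2, the tetherin that holds virions at the cell surface, had a difference of 0.53 ± 0.11 (adjusted p = 0.243), and Mx1 had 0.58 ± 0.19 (adjusted p = 0.324).

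The interferon-inducible GTPases, which attack the vacuoles of intracellular pathogens, also had their highest mean in number 1, and none passed the test. The differences between numbers 1 and 3 were 0.76 ± 0.18 for Gbp3, 0.48 ± 0.11 for Gbp7, 0.76 ± 0.16 for Igtp and 0.76 ± 0.16 for Irgm1, with adjusted p from 0.172 to 0.298. Every array numbered 1 was above the others for Gbp3, Igtp and Irgm1, and not for Gbp7. The RNA sensor Ifih1 and its regulator Dhx58 had 0.51 ± 0.16 and 0.52 ± 0.16, with overlapping arrays (adjusted p = 0.453 and 0.457). Differences were least for Samd9l, an antiviral translation inhibitor, at 0.15 ± 0.16 (adjusted p = 0.877), Irf9, and Rtp4, an inhibitor of flavivirus replication, at 0.25 ± 0.12 (adjusted p = 0.641). When only clusters with a mean of at least 5 were tested, 9 of the 24 members that reached this level passed (Oas2, Irf7, Isg15, Usp18, Cmpk2, Oasl2, Ifi35, Irgm1 and Bst2, adjusted p from 0.00167 to 0.0476), against 4.84% of the 5144 clusters. The cut uses the mean over all arrays and leaves out 6 members.

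Members with and without the promoter motif were set side by side, with no test. The 12 genes with a match had a median difference of 0.57 between numbers 1 and 3 and 11 of them had an unadjusted p under 0.05, while the 10 genes without a match had a median of 0.55 and a count of 7.

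**Figure D2:**
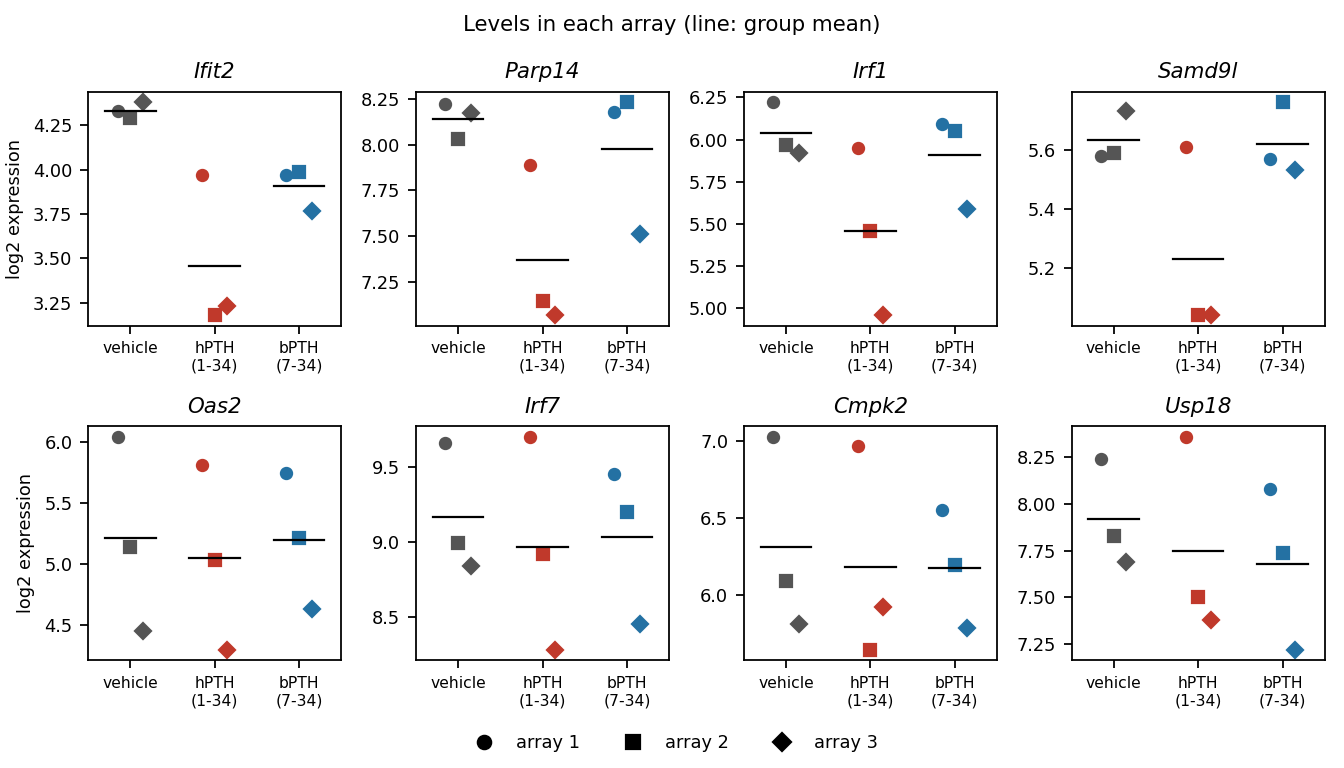
Each point is the log2 expression of a gene in an array, by treatment (horizontal axis) with the array number as its shape, and each line is a group mean. In the top row hPTH(1-34) arrays 2 and 3 of Ifit2, Parp14, Irf1 and Samd9l lie below every vehicle array; in the bottom row the array numbered 1 is the highest in every group for Oas2, Irf7, Cmpk2 and Usp18.

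The comparison of hPTH(1-34) with vehicle asks what the agonist did to these genes in 4 h. No member passed limma's test at an adjusted p of 0.05 (group as the only term), where 0.451% of all clusters did (0.14% lower, 0.31% higher). The log2 change was negative in 26 of 30 members, against 49% of all clusters, with a median of -0.19 (-0.87 to 0.36) against 0.00 for all clusters. The median was -0.03 without vehicle array 1, -0.04 without hPTH(1-34) array 3, -0.35 without vehicle array 3 and -0.49 without hPTH(1-34) array 1. At an unadjusted p under 0.05, 6 members were lower and 0 higher, against 3.78% and 5.53% of all clusters. Those 6 were Ifit2, Parp14, Rtp4, Samd9l, Irf1 and Ifit3. The count was 2 without hPTH(1-34) array 3, 3 without hPTH(1-34) array 2, vehicle array 1 or vehicle array 3, and 11 without hPTH(1-34) array 1. The share of all clusters at that unadjusted p was not counted in these fits. Clusters called at an adjusted p under 0.05 also moved, from 106 with all arrays to between 0 and 259 without 1 array. The 95% interval of the change held 0 for the other 24 members, and its median half-width was 0.53 for the members and 0.30 for all clusters. These intervals include the spread between array numbers. A limma fit with array number as a block had 10 members lower and 1 higher at an unadjusted p under 0.05. The shares of all clusters were 4.8% and 6.4%, and no member passed at an adjusted p of 0.05.

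Ifit2, which binds viral RNA and blocks translation, had the lowest p. Its vehicle arrays were 4.33, 4.29 and 4.38, its hPTH(1-34) arrays were 3.97, 3.18 and 3.23, and its bPTH(7-34) arrays were 3.97, 3.99 and 3.77. The vehicle arrays were close together and above all 6 peptide arrays, and hPTH(1-34) arrays 2 and 3 were lower than all others. Group means were 4.33 ± 0.05 (SD, n = 3) for vehicle and 3.46 ± 0.44 for hPTH(1-34), a change of -0.87 ± 0.19 (SE), a size of 1.83-fold (limma adjusted p = 0.118). Without hPTH(1-34) array 1 the change was -1.13 (adjusted p = 0.00426), and with arrays numbered 2 and 3 alone, an alternative chosen after the data were seen, it was -1.13 (adjusted p = 0.0496).

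Parp14, an ADP-ribosyltransferase of the interferon and interleukin responses, was 8.22, 8.03 and 8.17 in vehicle, 7.89, 7.15 and 7.07 in hPTH(1-34) and 8.18, 8.23 and 7.51 in bPTH(7-34). All hPTH(1-34) arrays were below all vehicle arrays, as also for Ifit2, which makes 2 of 30 members without overlap in this direction, against 4.58% of clusters. The change was -0.77 ± 0.24 (adjusted p = 0.331). Parp9, which lies beyond Dtx3l in the gene order, gave -0.27 ± 0.19 (adjusted p = 0.718).

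Irf1, whose array values are given above, had a change of -0.58 ± 0.24 (adjusted p = 0.483). Its hPTH(1-34) array 1 lay between vehicle arrays 2 and 3, so the groups overlapped. Ifit3, the partner of Ifit2 in RNA-binding complexes, was 4.44, 3.63 and 4.05 in vehicle, 3.58, 3.75 and 3.07 in hPTH(1-34) and 3.92, 3.43 and 3.86 in bPTH(7-34). Its change was -0.57 ± 0.24 (adjusted p = 0.496), and the groups overlapped because vehicle array 2 was low. Rtp4 was 8.46, 8.19 and 8.28 in vehicle, 8.20, 7.87 and 7.76 in hPTH(1-34) and 8.21, 8.32 and 8.07 in bPTH(7-34). Its change was -0.37 ± 0.13 (adjusted p = 0.422), and only hPTH(1-34) array 1 reached the vehicle arrays. Samd9l was 5.58, 5.59 and 5.73 in vehicle, 5.61, 5.04 and 5.04 in hPTH(1-34) and 5.57, 5.76 and 5.53 in bPTH(7-34). Its hPTH(1-34) arrays 2 and 3 were equal and low while array 1 was at the vehicle level. The change was -0.40 ± 0.16 (adjusted p = 0.451) and -0.59 without hPTH(1-34) array 1 (adjusted p = 0.0489).

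The genes that differed most by array number had no change by treatment that passed the test. Changes with hPTH(1-34) were -0.16 ± 0.47 for Oas2, -0.20 ± 0.38 for Irf7, -0.13 ± 0.40 for Cmpk2, -0.17 ± 0.29 for Usp18 and -0.14 ± 0.22 for Isg15. Their intervals, from the fit without array number, were wide, from -1.23 to 0.91 for Oas2. With array number as a block the SE was 0.11 for Oas2 and 0.15 for Irf7. Stat2 had -0.27 ± 0.18 and Irf9 -0.02 ± 0.12, with an interval of -0.29 to 0.25 for Irf9. The sensors Ifih1 and Dhx58 had -0.46 ± 0.23 and -0.43 ± 0.23. Of the 4 members with a positive change, Oasl1 had 0.36 ± 0.25 and Trim25, a ubiquitin ligase of RNA sensing, had 0.25 ± 0.20, while Mx1 and Rsad2 had 0.08 ± 0.31 and 0.05 ± 0.30. The adjusted p of every member named in these sentences was 0.589 or higher.

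**Figure D3:**
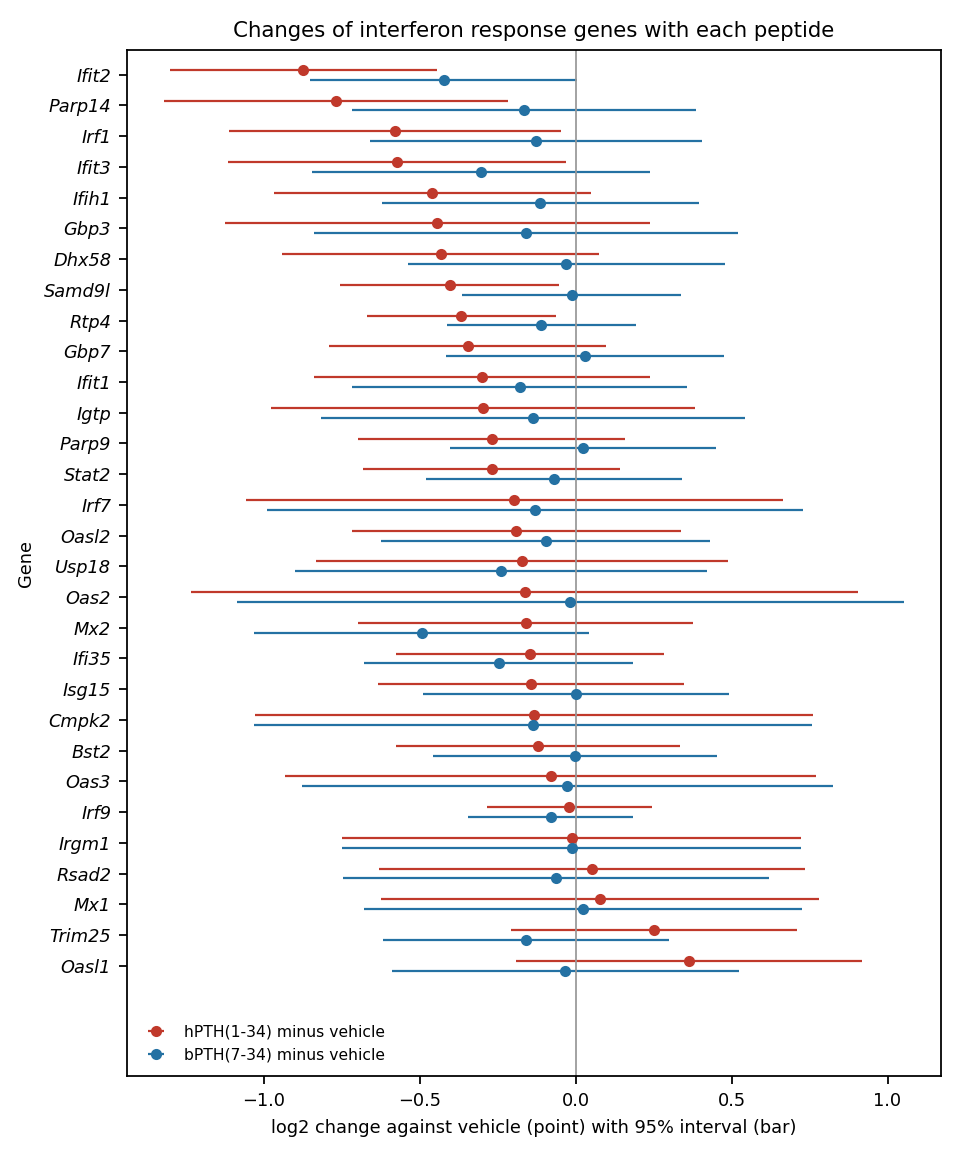
Points are log2 changes against vehicle on the horizontal axis, with 95% intervals from the limma fit as bars, for hPTH(1-34) in red and bPTH(7-34) in blue, for each of the 30 genes. Most points lie to the left of 0, and the hPTH(1-34) bar lies wholly below 0 for 6 genes, from Ifit2 at -0.87 to Rtp4 at -0.37.

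Within array numbers, hPTH(1-34) was compared with the vehicle array of the same number. The hPTH(1-34) array was the lower one in 20 members for number 1, 26 for number 2 and 24 for number 3, against 45%, 45.4% and 46.1% of all clusters. The median differences were -0.06, -0.20 and -0.40. In 15 members hPTH(1-34) was lower in all 3 numbers, against 13.5% of clusters. The differences for Ifit2 were -0.36, -1.11 and -1.15 and those for Parp14 were -0.33, -0.88 and -1.10, so both were smallest in number 1. Irf1 gave -0.27, -0.51 and -0.96, and Rtp4 gave -0.26, -0.32 and -0.52. Samd9l gave 0.03, -0.55 and -0.69, and Ifit3 gave -0.86, 0.12 and -0.98, so neither had 1 direction in all numbers.

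**Figure D4:**
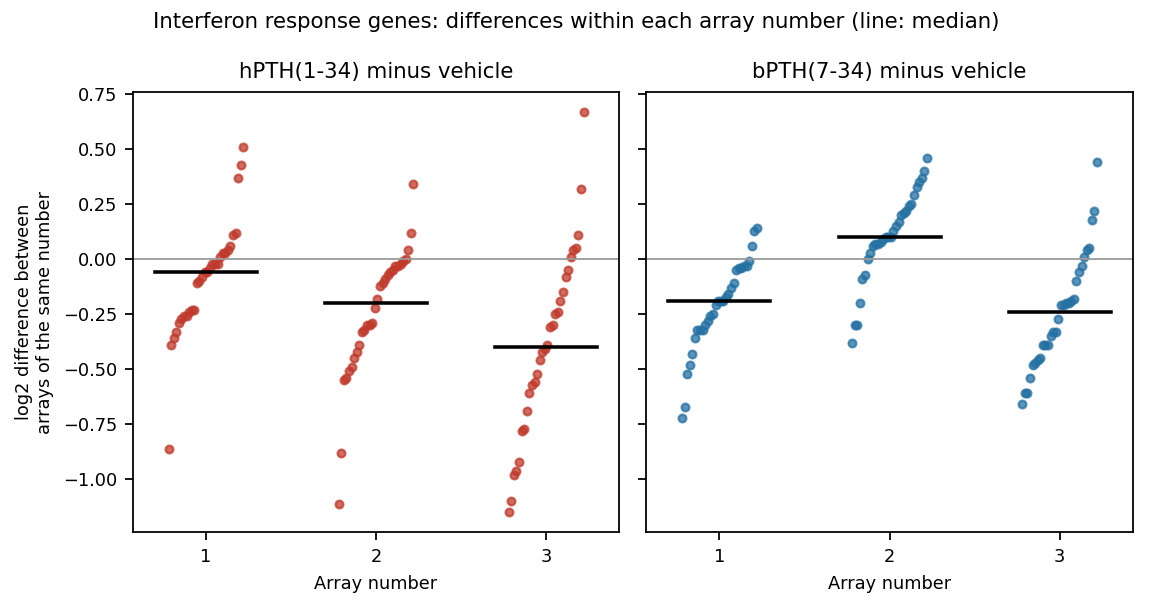
Each point is a gene, and the vertical axis is the log2 difference between a peptide array and the vehicle array of the same number, with hPTH(1-34) on the left and bPTH(7-34) on the right; lines are medians. For hPTH(1-34) the medians are -0.06, -0.20 and -0.40, and for bPTH(7-34) they are -0.19, 0.10 and -0.24, so the latter change sign in array number 2.

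For bPTH(7-34) against vehicle no member passed limma's test, and no cluster did (0%). No member had an unadjusted p under 0.05 either, where 3.32% of clusters did. With array number as a block 3 members did, all of them lower, against 1.86% of clusters in that direction. The log2 change was negative in 26 of 30 members, against 47.9% of clusters, with a median of -0.10 (-0.49 to 0.03). The sign of the median turned without vehicle array 1 (0.045) or bPTH(7-34) array 3 (0.048), and it was -0.25 without bPTH(7-34) array 1. The members with the lowest p were Ifit2, Mx2 and Ifi35. Ifit2 had -0.42 ± 0.19 (95% interval -0.85 to 0.01) and was the only member whose bPTH(7-34) arrays all lay below its vehicle arrays, against 2.39% of clusters. Mx2 had -0.49 ± 0.24 (-1.03 to 0.04). Ifi35, an interferon-induced leucine zipper protein, was 7.08, 6.55 and 6.59 in vehicle, 6.84, 6.59 and 6.35 in hPTH(1-34) and 6.76, 6.48 and 6.24 in bPTH(7-34), with -0.25 ± 0.19 and overlapping arrays. A second, dimmer cluster of Ifi35 (2.67 to 3.54) had 0.00 ± 0.20. The adjusted p was 0.999 for Ifit2, Mx2 and the brighter Ifi35 cluster. Intervals of this width leave room for changes of the sizes measured with hPTH(1-34) in some members, such as Irf1 with -0.13 (-0.66 to 0.41), and a p above the threshold does not show that bPTH(7-34) left these genes as they were.

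The direction of the bPTH(7-34) differences varied between array numbers. The bPTH(7-34) array was below the vehicle array of its number in 27 members for number 1, 6 for number 2 and 24 for number 3, against 47.1%, 43.8% and 43.9% of all clusters. In 5 members it was lower in all 3 numbers, against 8.6%. Both peptides are compared with the same vehicle arrays, so their changes are not independent of each other. The change was negative with both peptides in 23 members and positive with both in 1, and it was larger in size with hPTH(1-34) in 23. The shares of all clusters were not counted for these, so the counts describe the members only.

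Between hPTH(1-34) and bPTH(7-34), at doses that differ, no member passed limma's test, where 0.463% of clusters did. The hPTH(1-34) mean was the lower in 20 members and the higher in 9, against 50.5% and 48.4% of clusters, with a median of -0.13, which was 0.01 without bPTH(7-34) array 1, 0.05 without hPTH(1-34) array 3, -0.31 without bPTH(7-34) array 3 and -0.39 without hPTH(1-34) array 1. At an unadjusted p under 0.05, 3 members were lower and 0 higher, against 4.22% and 5.3%. These were Samd9l with -0.39 ± 0.16 (adjusted p = 0.466), Parp14 with -0.60 ± 0.24 (adjusted p = 0.473) and Ifit2 with -0.45 ± 0.19 (adjusted p = 0.497). Without hPTH(1-34) array 1, Ifit2 had -0.71 (adjusted p = 0.01998) and 11 members had an unadjusted p under 0.05. That count was 6 without bPTH(7-34) array 3, 1 without hPTH(1-34) array 2, and 0 without hPTH(1-34) array 3, bPTH(7-34) array 1 or bPTH(7-34) array 2. The share of all clusters at that unadjusted p was not counted in these fits. Clusters called at an adjusted p under 0.05 were 109 with all arrays and 2 to 262 without 1 array, with 262 without hPTH(1-34) array 1. The F-test over the 3 groups called no member, where 0.383% of clusters passed, and 3 members had an unadjusted p under 0.05, against 8.18%. Without hPTH(1-34) array 1 it called 1 member, and 198 clusters in place of 90.

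The wider pathway was read from 7 lists of 152 genes outside the members, of which 131 were measured. With hPTH(1-34), 2 of the 131 rose, against 0.31% of all clusters, and none fell, against 0.14%. With bPTH(7-34) none passed, and no cluster did (0%). Ptpn2, a phosphatase that dephosphorylates Jak1, was 6.73, 6.47 and 6.58 in vehicle, 7.41, 7.65 and 7.58 in hPTH(1-34) and 6.48, 6.65 and 6.30 in bPTH(7-34). All 3 agonist arrays were above the 6 others, a rise of 0.95 ± 0.12 (limma adjusted p = 0.0204) that lost its call without vehicle array 2 (0.118), vehicle array 3 (0.123), hPTH(1-34) array 2 (0.114) or hPTH(1-34) array 3 (0.129). Stat3, the transducer of interleukin-6 type cytokines, was 8.90, 8.61 and 8.72 in vehicle, 9.25, 9.37 and 9.46 in hPTH(1-34) and 8.79, 8.65 and 8.68 in bPTH(7-34). Its rise of 0.62 ± 0.10 (adjusted p = 0.0474) was equally free of overlap, and kept its call in 1 of the 9 fits with an array left out (adjusted p from 0.0366 to 0.202), that without hPTH(1-34) array 1. Against bPTH(7-34) the 2 genes were higher by 1.07 ± 0.12 and 0.65 ± 0.10 (adjusted p = 0.0133 and 0.0379). These calls were kept in 5 of 9 fits with an array left out for Ptpn2 (lost without array 2 or 3 of either peptide, adjusted p from 0.0515 to 0.0926) and in 2 of 9 for Stat3 (those without vehicle array 1 or hPTH(1-34) array 1, otherwise 0.0609 to 0.156). With only the 6 arrays of a comparison, neither gene passed against bPTH(7-34) (0.0912 for Ptpn2 and 0.118 for Stat3) or against vehicle (0.0989 and 0.177).

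Apart from Stat3, no gene of the receptor and JAK-STAT list passed. With hPTH(1-34), Ifngr1, a chain of the interferon-gamma receptor, had -0.48 ± 0.13 (adjusted p = 0.249) and Tyk2 had -0.30 ± 0.11 (adjusted p = 0.444). The median of the 13 measured genes of this list was -0.07. Among the 11 measured feedback inhibitors, Socs2 had 1.19 ± 0.28 (adjusted p = 0.148). Among sensors and adaptors, Myd88 had 0.40 ± 0.15 (adjusted p = 0.440). Of 45 other antiviral and induced genes 39 had a negative change (median -0.13), against 49% of all clusters. Of 22 interferon-gamma-induced GTPases and antigen presentation genes 19 did (median -0.21). For 6 induced chemokines the count was 5 (median -0.49), and Cxcl10, which attracts T cells, had -1.19 ± 0.54 (adjusted p = 0.546). None of these 3 lists held a gene that passed, or one with an unadjusted p under 0.05, where 0.451% and 9.31% of all clusters did.

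By array number, 2 of the 131 pathway genes passed, against 0.213% of all clusters. Oas1g, a paralogue of Oas2, was higher in number 1 than in numbers 2 and 3 by 0.88 ± 0.16 and 1.74 ± 0.16 (adjusted p = 0.0185, called in 3 of the 9 fits with an array left out). Gbp11, a guanylate-binding protein, was higher by 0.97 ± 0.16 and 1.36 ± 0.16 (adjusted p = 0.0484, called in none of those 9 fits, where it was 0.0558 to 0.307). Every array numbered 1 was above the 6 others in 18 of the 45 other antiviral genes, in 10 of the 22 GTPases and antigen presentation genes and in 1 of the 6 chemokines, against 3.24% of clusters. In the receptor list it was 2 of 13, in the sensors 1 of 15 and in the feedback inhibitors 1 of 11. Chemokine Cxcl9 differed by 1.28 between numbers 1 and 3 (adjusted p = 0.147), and the sensor Zbp1 by 1.14 (adjusted p = 0.149). The interferon genes themselves were near the background limit. Of 19 measured ligands 9 exceeded the limit in any array and 4 in all, and Ifnb1, the beta interferon gene, was 0.76 to 1.01.

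Markers of other cells were read by array number as well. All 20 macrophage and osteoclast markers were measured and 15 of them were above the limit in all 9 arrays. Their mean level was 4.01 to 4.50 in the arrays numbered 1, 3.74 to 4.22 in number 2 and 3.30 to 4.00 in number 3. By treatment it was 3.74 to 4.45 in vehicle, 3.30 to 4.50 in hPTH(1-34) and 3.41 to 4.22 in bPTH(7-34). No marker of the list passed for array number or treatment, while 11 of 20 had an unadjusted p under 0.05 for number, against 10.1% of all clusters, and the array means of numbers 1 and 2 overlapped. The median difference of the list was 0.48 between numbers 1 and 2 and 0.64 between numbers 1 and 3. The macrophage receptor Adgre1 was 6.29, 4.82 and 5.39 in vehicle, 6.37, 4.83 and 3.78 in hPTH(1-34) and 5.33, 5.91 and 3.81 in bPTH(7-34) for numbers 1 to 3. Its hPTH(1-34) and bPTH(7-34) arrays numbered 3 were the lowest, as was the mean of the interferon response genes in hPTH(1-34) array 3. The pore-forming protein gene Mpeg1 differed by 2.42 between numbers 1 and 3 (adjusted p = 0.144), and all its arrays numbered 1 were above the others, as for C1qb and Laptm5. That makes 3 of the 20 markers, against 3.24% of all clusters. The highest mean was in number 1 for 15 of the 20, against 36.5% of all clusters, and in number 2 or 3 for the rest. In array number 2 the order of the groups was the same for both lists at the top only, with bPTH(7-34) highest for the macrophage markers (4.22 against 3.74 in vehicle and 3.85 in hPTH(1-34)) and for the interferon response genes. The part of these cells in the levels of the interferon response genes was not tested.

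Of 13 measured lymphocyte and plasmacytoid dendritic cell markers, which include the member Bst2, 1 was above the limit in all arrays and 8 in any. The plasmacytoid marker Siglech did not exceed it. For array number, 2 of these 13 and 2 of 9 endothelial markers had an unadjusted p under 0.05, against 10.1% of all clusters. None of them passed, where 0.213% of all clusters did, and the median difference was -0.02 between numbers 1 and 2 in each list. Of 10 measured osteoblast markers 2 passed for array number and 3 had an unadjusted p under 0.05, with a median difference of -0.10 between numbers 1 and 3. Of 8 chondrocyte markers 2 passed and 5 had an unadjusted p under 0.05, with a median of -0.33. Those that passed were all lower in number 1. Phex, an endopeptidase of mature osteoblasts and osteocytes, had differences of -0.98 ± 0.11 between numbers 1 and 2 and -1.79 ± 0.11 between numbers 1 and 3 (adjusted p = 0.00455), a call lost without vehicle array 1 (0.0675). The cartilage collagen gene Col2a1 had -1.21 ± 0.09 and -1.27 ± 0.09 (adjusted p = 0.00559, lost without vehicle, hPTH(1-34) or bPTH(7-34) array 1, 0.0601 to 0.0675). Ibsp, a bone matrix sialoprotein, had -1.93 ± 0.22 and -1.23 ± 0.22 (adjusted p = 0.0466, called in 1 of 9 fits with an array left out). Comp, a cartilage matrix protein, had -0.81 ± 0.14 and -1.28 ± 0.14 (adjusted p = 0.0411, called in none of those fits). Of 7 measured adipocyte markers 6 had an unadjusted p under 0.05 for array number and none passed. Their median difference was 0.71 between numbers 1 and 2 and 0.31 between numbers 1 and 3. With hPTH(1-34) none of the 7 had a negative change, against 49% of all clusters, and the median was 0.54. Among them the adipokine gene Adipoq had number differences of 0.91 ± 0.14 and 1.07 ± 0.14 (adjusted p = 0.0553). No gene of the 10 measured housekeeping genes passed, and their mean lay between 7.94 and 8.11 in all arrays.

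**Figure D5:**
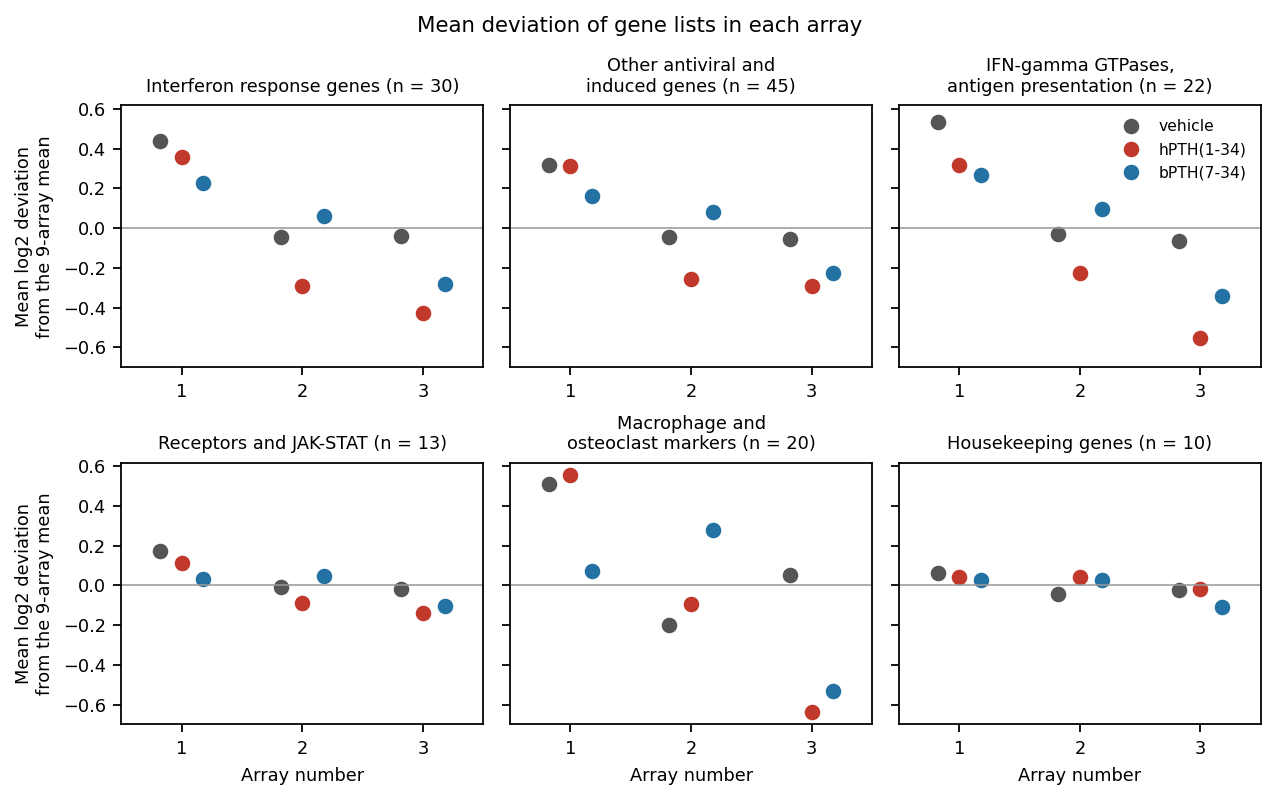
Points are the mean log2 deviation of a gene list from its 9-array mean (vertical axis) in each array, by array number (horizontal axis) and treatment (colour), for 6 lists with n genes each. The interferon response genes, the other antiviral genes and the GTPases are highest in number 1 and lowest in hPTH(1-34) array 3; the macrophage and osteoclast markers share that low array, and the housekeeping genes stay between -0.11 and 0.06.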

How the data were processed

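RNA of 9 samples (3 per treatment) was measured on Affymetrix Mouse Gene 2.0 ST arrays. The deposited values are log2 expression per transcript cluster, made by the authors with Affymetrix Expression Console and RMA, per the submitters' processing notes (versions not given in the sources used here). RMA makes the arrays' distributions alike, so a shift shared by all genes would not be seen. Gene symbols came from the platform annotation: of 41345 clusters 23521 had 1 symbol, 1814 several and 16010 none, and the 23521 were tested. limma 3.58.1 in R 4.3.3 (lmFit, eBayes, two-sided, Benjamini-Hochberg, threshold 0.05) was fitted to all 9 arrays, with treatment group the sole term (6 residual and 3.20 prior degrees of freedom), and the F-test for array number used group and number. Errors beside levels are SD, those beside changes SE. The 3 comparisons share arrays. The fits were tried on 5 simulated sets, with noise drawn independently for each cluster and array. Of added log2 differences of 1, they recovered 75.4% for hPTH(1-34) against vehicle and 61.8% for array number. Such sets hold no correlation between genes and no array-number pattern apart from the added differences, so they do not show how the fits behave on these data.

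The members and lists were chosen with earlier results of these data known. Array values are given for Ifit2, Isg15, Irf1, Irf7, Irf9, Stat2, the 6 members of lowest p between hPTH(1-34) and vehicle, the 6 of lowest p for array number, and the 3 for each other comparison. At most 3 genes per other pathway list, with the smallest p for hPTH(1-34) or array number, are named. Alternatives were the array number as a block, all clusters, a minimum mean of 5, other scalings, trended robust eBayes, array weights, fewer arrays, and a shorter promoter motif. Figures were drawn with matplotlib 3.10.9.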

Additional observations from a re-analysis of the deposited data

How the results depend on the processing

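The clusters called, over all genes, moved with the set tested. For hPTH(1-34) against vehicle (106) they were 16 over all clusters, 182 over clusters with a mean of at least 5, 166 with array weights, 65 with arrays numbered 2 and 3 alone (chosen after the data were seen), 0 with the 6 arrays of the comparison alone and 0 to 259 without 1 array. For hPTH(1-34) against bPTH(7-34) (109) they were 3, 211, 204, 46, 0 and 2 to 262 in that order. For any group difference (90) they were 2, 170, 157 and 7 in the first 4 settings and 2 to 198 without 1 array. For array number (50) they were 11 over all clusters, 249 with a mean of at least 5, 148 with trended robust eBayes and 6 to 31 without 1 array. For bPTH(7-34) against vehicle (0) they were 0 throughout. The cause of these moves was not tested.

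Members called for array number were 0 over all clusters (Oas2 adjusted p = 0.0835), 9 with a mean of at least 5, 4 with trended robust eBayes and 0 to 1 without 1 array. Members called were 0 to 2 without 1 array and 1 with arrays numbered 2 and 3 alone for hPTH(1-34) against vehicle, 0 to 1 without 1 array against bPTH(7-34) and 0 to 1 for any group difference. Without 1 array the members at an unadjusted p under 0.05 for number were 15 to 25. The members' median change ranged from -0.49 to -0.028 for hPTH(1-34), from -0.25 to 0.05 for bPTH(7-34) and from -0.39 to 0.052 between the peptides. Reversed changes with hPTH(1-34) were those of Irf7 (-0.56 to 0.15 without 1 array, positive at 0.05 without vehicle array 1 and at 0.15 without hPTH(1-34) array 3) and Isg15 (-0.28 to 0.028, positive without hPTH(1-34) array 3). With all 41345 transcript clusters in the test in place of the 23521, Ptpn2 and Stat3 had adjusted p = 0.0686 and 0.131 against vehicle and 0.0571 and 0.114 against bPTH(7-34).

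Deviations from the group means were correlated between arrays of 1 number. The correlations were 0.241 to 0.364 for number 1, 0.0646 to 0.0724 for number 2 and 0.174 to 0.267 for number 3. All were positive, and 8 of the 9 arrays correlated best with the array of their own number in both other groups. The number was left out of the main fits because the labels state no shared preparation. The errors of those fits therefore include the spread between numbers. With the replicate block the clusters called were 112, 0 and 116 for the 3 comparisons and 59 for any group difference, and no member was called. Members at an unadjusted p under 0.05 were then 11, 3 and 9. For hPTH(1-34) against vehicle 10 were lower and 1 higher, against 4.8% and 6.4% of all clusters. For bPTH(7-34) against vehicle all 3 were lower, against 1.86%. Between the peptides 6 were lower and 3 higher with hPTH(1-34), against 5.15% and 6.15%. In the blocked fit Ifit2 had adjusted p = 0.0970 against vehicle, and Stat3 had 0.0754 against vehicle and 0.0594 against bPTH(7-34). The random block had a consensus correlation of 0.0649 and called 127, 0 and 149 clusters. The shorter motif (GAAA and GAA with 2 bases between them) was in 14 of 22 promoter sets, against 9.76% of genes.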
